A study of Mus musculus with 14 samples.

Results

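Expression of 10 markers of ductal and tumor epithelium was followed by RNA-Seq in mouse livers: Krt7, Krt8, Krt18, Krt19, Epcam, Cdh1, Muc1, Msln, Sox9 and Cldn7. They are 10 of the 54532 genes in the liver count table, were matched by gene name, and all 10 were found. The livers came from an orthotopic model of pancreatic ductal adenocarcinoma (PDAC), in which KPCY cells, a mouse PDAC line with a yellow fluorescent tracer, were placed in the tail of the pancreas. Per the study's methods, livers were taken 20 days after surgery, from mice aged 8 to 12 weeks at the start, and both sexes were used. The 2 WT livers came from mice that the methods list as Piezo fl/fl. The 3 TRPV4-KO livers came from Trpv4-/- mice, in which loss of this calcium channel was not limited to 1 cell type. The deletion was in the host alone, not in the tumor cells. The 3 GSK219 livers were those of WT animals dosed by daily gavage with 10 mg/kg GSK2193874, an antagonist of TRPV4. Another data set came from mouse pancreatic stellate cells (PSCs), the fibroblast-like cells of the pancreas. It held 3 libraries with DMSO and 3 with 25 μM Yoda1, an agonist of the channel PIEZO1. DMSO and Yoda1 libraries of the same replicate number share a sample code. They are taken here as 1 preparation, which the labels do not state. No liver of a mouse without tumor cells and no count for the fluorescent tracer was analysed here.

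Simple epithelia are built from pairs of keratin filaments and from cell contacts held by cadherins and claudins. In the liver, hepatocytes make the keratin pair Krt8 and Krt18, while the cells of bile ducts add Krt7 and Krt19 together with Epcam and the transcription factor Sox9. PDAC cells have a ductal character and commonly make the same ductal keratins and surface proteins. The ductal markers in a whole-liver library can therefore come from bile ducts or from tumor cells, and these sources cannot be told apart by the markers alone. Fewer cells of a type and less RNA per cell cannot be told apart either in these bulk samples.

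Windows around the RefSeq start sites (GRCm38.p6) were matched for 6 of the 10 markers, Krt7, Krt8, Krt18, Epcam, Muc1 and Cldn7. Windows of 300 bases, 250 before the start and 50 after it, are printed 5′ to 3′ on the gene strand for 5 of these 6. Krt8 and Krt18 are shown because their counts followed each other over the livers, Krt7 and Epcam because they mark ducts, and Muc1 because it varied most between livers relative to its level. Capitals mark 3 motifs searched by letters. These are TATAAA on the gene strand, the binding motif of TATA-binding protein, GGGCGG on both strands, a GC box, and CAGGTG on both strands, an E-box of the kind bound by Snail and Zeb repressors of epithelial genes. No matches overlapped in the windows shown.
Krt8: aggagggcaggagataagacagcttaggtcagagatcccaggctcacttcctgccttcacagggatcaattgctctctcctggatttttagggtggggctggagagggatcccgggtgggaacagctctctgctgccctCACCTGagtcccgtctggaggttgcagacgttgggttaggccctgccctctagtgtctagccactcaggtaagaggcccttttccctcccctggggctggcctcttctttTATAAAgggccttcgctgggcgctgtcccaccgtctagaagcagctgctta
Krt18: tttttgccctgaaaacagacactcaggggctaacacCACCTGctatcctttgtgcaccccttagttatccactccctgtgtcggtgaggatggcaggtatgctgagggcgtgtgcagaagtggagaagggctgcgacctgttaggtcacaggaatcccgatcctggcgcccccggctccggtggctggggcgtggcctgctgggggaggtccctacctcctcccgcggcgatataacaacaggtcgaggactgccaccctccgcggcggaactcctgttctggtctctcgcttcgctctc
Krt7: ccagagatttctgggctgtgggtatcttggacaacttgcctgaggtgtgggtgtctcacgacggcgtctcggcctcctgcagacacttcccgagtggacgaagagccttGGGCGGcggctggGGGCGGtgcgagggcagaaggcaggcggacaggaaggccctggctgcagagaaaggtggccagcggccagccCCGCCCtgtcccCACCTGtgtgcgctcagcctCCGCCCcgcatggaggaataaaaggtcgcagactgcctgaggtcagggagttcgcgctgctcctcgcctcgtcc
Epcam: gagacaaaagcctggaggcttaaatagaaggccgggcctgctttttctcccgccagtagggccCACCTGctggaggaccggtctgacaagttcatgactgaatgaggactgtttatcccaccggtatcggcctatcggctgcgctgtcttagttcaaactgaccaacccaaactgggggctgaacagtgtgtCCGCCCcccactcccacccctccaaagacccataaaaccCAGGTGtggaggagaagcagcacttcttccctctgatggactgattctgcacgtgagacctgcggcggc
Muc1: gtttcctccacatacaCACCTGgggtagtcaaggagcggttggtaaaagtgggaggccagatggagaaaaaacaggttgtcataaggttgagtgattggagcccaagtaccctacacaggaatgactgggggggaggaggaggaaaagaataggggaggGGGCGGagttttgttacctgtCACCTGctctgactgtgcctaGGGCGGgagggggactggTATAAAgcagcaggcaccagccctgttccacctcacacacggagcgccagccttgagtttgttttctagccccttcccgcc
The windows lie at chr15:102004293-102004592 on the minus strand for Krt8, chr15:102027966-102028265 on the plus strand for Krt18, and chr15:101412153-101412452 on the plus strand for Krt7. Those of Epcam and Muc1 lie on the plus strand at chr17:87635729-87636028 and chr3:89228806-89229105. CAGGTG was found in 5 of the 6 windows, the exception being Cldn7, against 20.03% of 27025 promoter windows of the same length. GGGCGG was found 4 times for Krt7, 2 times for Muc1 and 1 time for Epcam, and is present in 35.9% of all windows. TATAAA was found for Krt8 and Muc1, against 8.88% of all windows. These matches describe letters only.

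The livers were sequenced to similar depth, with 15567031 to 17395299 counts per liver, and 15118 genes passed the filter on low counts. All 10 markers were among the tested genes. The biological coefficient of variation was 28.3%. Liver identity was clear, since the summed level of 10 hepatocyte genes was 66796 to 107220 CPM (read counts scaled to library size with TMM factors) in the 8 livers. Trpv4 itself had 43 and 53 counts in the WT livers, 15, 5 and 23 in the TRPV4-KO livers and 20, 30 and 36 in the GSK219 livers. Every TRPV4-KO liver was below every WT liver, and the fitted difference of WT over TRPV4-KO was 1.71 ± 0.50 (SE) on the log2 scale (edgeR, adjusted p = 0.161). Which exons the deletion removes is not given in the sources used here, so these counts check the labels only in part. Of the livers left out singly, TRPV4-KO replicate 3 moved the number of called genes most. Without it, 722 genes were called between WT and TRPV4-KO livers at the thresholds used throughout (adjusted p under 0.05 and an absolute log2 fold change over 1), against 40 with it, and results that turn on it are given both ways. The labels call the livers of a group biological replicates, and the study counts the WT and TRPV4-KO livers as animals. The p-values measure the spread between these samples.

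The keratin pair of hepatocytes, Krt8 and Krt18, made up most of the marker reads. Krt8 (chr15:101996698-102004482, a type II keratin) had 6086 and 6188 counts in the WT livers, 4111, 4419 and 6771 in the TRPV4-KO livers, and 5408, 5686 and 4383 in the GSK219 livers. Krt18 (chr15:102028180-102032027, its type I partner) had 4603 and 4063 counts in the WT livers, 2144, 2630 and 4432 in the TRPV4-KO livers, and 3628, 3599 and 3119 in the GSK219 livers. For both genes TRPV4-KO replicate 3 stood with the WT livers and the other TRPV4-KO livers were lower, so that WT and TRPV4-KO overlapped. All GSK219 livers were below both WT livers. Both genes followed each other over the 8 livers (Pearson r = 0.91, Spearman rho = 0.93, a description over libraries that share their depth and groups), and they are neighbors on chromosome 15, 23697 bases apart. A processed pseudogene, Krt8-ps, had 10 to 15 counts per liver, at most 0.268% of the Krt8 count, although the way the counting treated reads shared by both is not given in the sources used here.

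The ductal keratins had low counts but passed the filter. Krt19 (chr11:100140810-100148665), the keratin most used to mark ductal cells, had 19 and 25 counts in the WT livers, 25, 16 and 47 in the TRPV4-KO livers, and 16, 16 and 18 in the GSK219 livers. Krt7 (chr15:101411043-101430313), the other ductal keratin, had 24 and 17 counts in the WT livers, 21, 22 and 20 in the TRPV4-KO livers, and 8, 6 and 13 in the GSK219 livers. The highest Krt19 count, in TRPV4-KO replicate 3, was in a group that lacked TRPV4, and the GSK219 livers were the lowest for Krt7. In the WT livers Krt19 amounted to 1.32 ± 0.20 CPM (SD, n = 2) and Krt7 to 1.24 ± 0.35 CPM, where 3 counts correspond to 0.172 to 0.193 CPM.

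**Figure D1:**
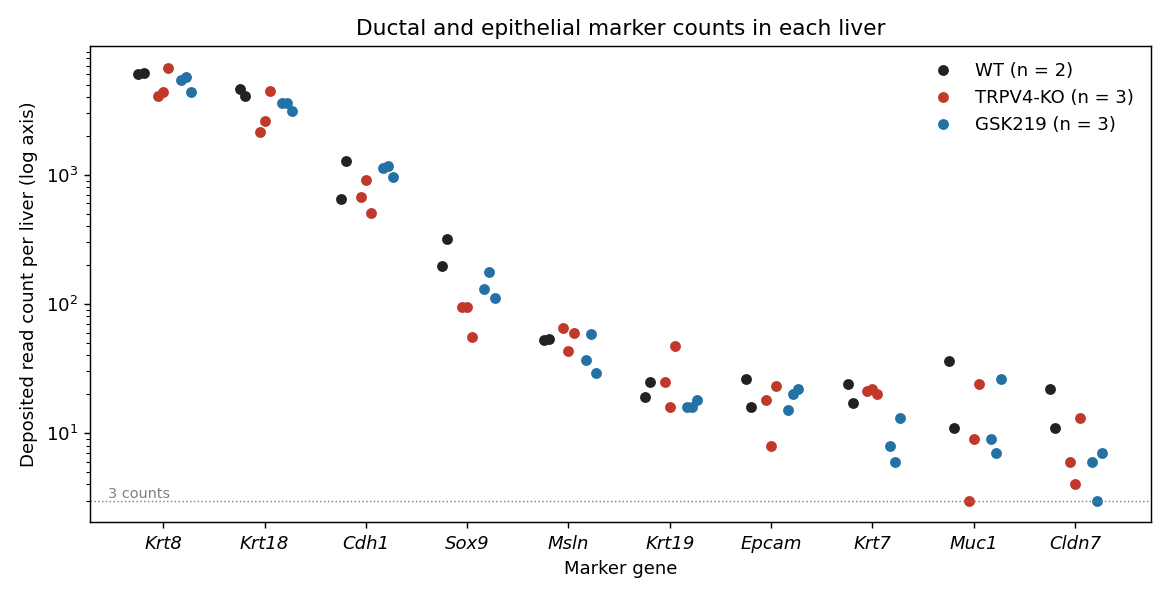
Deposited read counts of the 10 markers in each liver on a log axis, with 1 point per liver and the groups in 3 colors. Krt8 and Krt18 lie at 2144 counts or more in every liver, whereas Krt19, Epcam, Krt7, Muc1 and Cldn7 lie between 3 and 47.

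The contact proteins fell into a high and a low part. Cdh1 (chr8:106603351-106670246), which encodes E-cadherin, had 646 and 1287 counts in the WT livers, 677, 912 and 509 in the TRPV4-KO livers, and 1123, 1168 and 970 in the GSK219 livers. Epcam (chr17:87635979-87651106), an adhesion molecule of simple epithelia, had 26 and 16 counts in WT, 18, 8 and 23 in TRPV4-KO, and 15, 20 and 22 in GSK219 livers. Cldn7 (chr11:69964779-69967885), a tight junction claudin, had 22 and 11 counts in WT, 6, 4 and 13 in TRPV4-KO, and 6, 3 and 7 in GSK219 livers. The groups overlapped for Cdh1 and Epcam in all comparisons, while both WT livers were above all GSK219 livers for Cldn7.

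Of the surface glycoproteins, Muc1 (chr3:89229057-89233381), a membrane mucin of glandular cells, had 36 and 11 counts in WT, 3, 9 and 24 in TRPV4-KO, and 9, 7 and 26 in GSK219 livers. Each group held 1 liver well above the others. Msln (chr17:25748614-25754327), which encodes mesothelin of mesothelial and many PDAC cells, had 53 and 54 counts in WT, 65, 43 and 60 in TRPV4-KO, and 37, 59 and 29 in GSK219 livers, and its groups overlapped. The transcription factor Sox9 (chr11:112782224-112787760) had 197 and 320 counts in WT, 95, 95 and 55 in TRPV4-KO, and 130, 177 and 111 in GSK219 livers. Sox9 was the marker with the clearest order, with both WT livers above every other liver and every GSK219 liver above every TRPV4-KO liver.

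Per length, on the scale of CPM per kilobase of the deposited gene length, the mean levels over the 8 livers ran from Krt8 at 167 and Krt18 at 149 through Cdh1 at 12.2, Sox9 at 2.17 and Msln at 1.44 to Krt19 at 0.743. Below these came Epcam at 0.551, Muc1 at 0.404, Cldn7 at 0.280 and Krt7 at 0.142. Ranked over all genes by this level, Krt8 was at place 264, Krt18 at place 291 and Cdh1 at place 2967, whereas Krt19 was at place 12158 and Krt7 at place 16957. The ranges over livers overlapped between Krt8 and Krt18, and between each marker and the next from Sox9 down to Krt7, so the order of these neighbors is within their spread. The range of Cdh1, 6.44 to 16.4, overlapped with no other marker.

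Between WT and TRPV4-KO livers, which asks whether loss of TRPV4 in the host changed the markers, none of the 10 was called. Of all tested genes, 0.265% were called. The methods list the WT and Trpv4-/- mice as different lines, so line and loss of TRPV4 cannot be told apart. Of the markers, 7 had a positive and 3 a negative log2 fold change of WT over TRPV4-KO, with a median of 0.37 against -0.01 for all tested genes. The largest difference was that of Sox9, with 15.4 ± 4.57 CPM (SD, n = 2) in WT and 5.12 ± 1.67 CPM (n = 3) in TRPV4-KO livers. Its log2 fold change was 1.59 ± 0.33 (SE), or 3.02-fold, with an adjusted p of 0.102 by edgeR. Sox9 was also the only marker with every WT liver above every TRPV4-KO liver, as were 17.7% of all tested genes. At an unadjusted p under 0.05 it was again 1 of 10 markers, against 17.1% of all tested genes.

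The Sox9 call depended on the fit. It was called with DESeq2 (adjusted p = 0.00179), without the filter on low counts (0.0297) and with a term for sex-linked reads (0.00746), as well as when TRPV4-KO replicate 3 was left out (0.0341). When any of the other livers was left out it was not called, and the adjusted p reached 0.371 without WT replicate 1. Its direction held in each of these fits, with log2 fold changes from 1.26 to 1.88.

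The ductal keratins did not follow Sox9. Krt19 had a log2 fold change of WT over TRPV4-KO of -0.44 ± 0.43 (SE, adjusted p = 0.660 by edgeR), which became 0.01 without TRPV4-KO replicate 3. Krt7 had -0.08 ± 0.41 (adjusted p = 0.948). The interval of 2 SE around the Krt7 value, -0.89 to 0.74, leaves room for changes in either direction. Without TRPV4-KO replicate 3, Krt18 reached an adjusted p of 0.0358 at a log2 fold change of 0.77, under the fold threshold. With all livers Krt18 had 0.48 ± 0.24, Cdh1 0.39 ± 0.32, Muc1 0.97 ± 0.85 and Cldn7 1.08 ± 0.60, with adjusted p-values of 0.370, 0.587, 0.616 and 0.404 by edgeR. With single livers left out, the direction turned for Cdh1 (-0.12 to 0.79) and Muc1 (-0.16 to 1.87), and Cldn7 ran from 0.47 to 1.62.

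**Figure D2:**
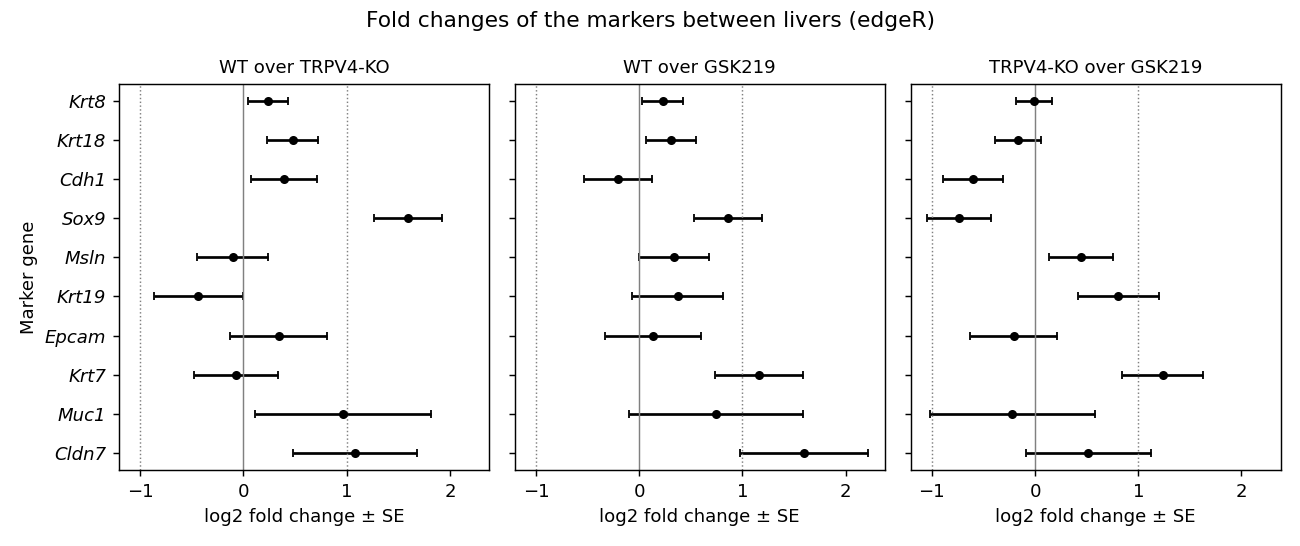
Log2 fold changes of the 10 markers in the 3 liver comparisons, with SE bars from edgeR and dotted lines at the fold threshold of 1 in either direction. Sox9 in WT over TRPV4-KO lies farthest from 0 relative to its SE.

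Between WT and GSK219 livers no marker was called, and 0.0% of all tested genes were. This comparison asks the same of the antagonist and shares the WT livers with the comparison above. The methods name no vehicle gavage for the WT mice, so drug and daily gavage cannot be told apart. By edgeR 0 of 15118 genes passed, with 1242 genes at an unadjusted p under 0.05, whereas DESeq2 called 74 genes, none of them a marker. Of the 10 markers, 6 had every WT liver above every GSK219 liver, namely Krt7, Krt8, Krt18, Krt19, Sox9 and Cldn7, against 15.6% of all tested genes. The differences were small for several of them. The log2 fold change was 0.23 ± 0.20 (SE) for Krt8, 0.31 ± 0.25 for Krt18 and 0.37 ± 0.44 for Krt19. It was larger for Krt7 at 1.16 ± 0.43 (adjusted p = 0.564), for Cldn7 at 1.59 ± 0.62 (adjusted p = 0.571) and for Sox9 at 0.86 ± 0.33 (adjusted p = 0.571), all by edgeR. At an unadjusted p under 0.05 there were 3 of 10 markers, against 8.22% of all tested genes. The median over the 10 markers was 0.35 against -0.0015 for all tested genes. Only Cdh1 had a negative value, -0.21 ± 0.33.

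Between TRPV4-KO and GSK219 livers no marker was called, against 0.0992% of all tested genes. Krt7 was higher in every TRPV4-KO than in every GSK219 liver, as were 5.85% of all tested genes, with 1.30 ± 0.14 CPM against 0.55 ± 0.21 CPM (SD, n = 3 each) and a fitted difference of 1.24 ± 0.39 (SE, edgeR, adjusted p = 0.626) on the log2 scale. Sox9 went the other way, with every GSK219 liver above every TRPV4-KO liver, as for 4.35% of all tested genes, and a log2 fold change of -0.73 ± 0.31 (adjusted p = 0.798). These were also the 2 of 10 markers with an unadjusted p under 0.05, against 6.12% of all tested genes, and their directions were opposite.

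Other genes often raised in PDAC were looked up in a list of 28. Of these, 5, Krt6a, Muc5ac, Agr2, Pdx1 and Gkn1, had 0 counts in all 8 livers, which allows up to 3 counts per liver. With these, 13 of the 28 had at most 3 counts in every liver, among them Cldn4, Krt17, Krt20 and Areg. Of the 28, 8 were tested and none was called in any liver comparison. The highest of them were Onecut2, a transcription factor that liver cells also make, with 2012 to 2513 counts, and Mal2, a protein of apical transport, with 471 to 974. Plac8, a small cysteine-rich protein, had 396 and 305 counts in WT, 107, 75 and 324 in TRPV4-KO, and 115, 187 and 241 in GSK219 livers. It overlapped between WT and TRPV4-KO livers (log2 fold change 1.06, adjusted p = 0.369 by edgeR). Both WT livers were above every GSK219 liver, as for 15.6% of all tested genes (log2 fold change 0.94, adjusted p = 0.719 by edgeR). The summed level of the list was 183 to 220 CPM in WT, 187 to 220 CPM in TRPV4-KO and 178 to 230 CPM in GSK219 livers, of which Onecut2 and Mal2 made up 83.2% to 93.9%. The other 26 genes, summed without them after these values had been seen, had 24.3 to 37.1 CPM in WT, 13.5 to 30.2 CPM in TRPV4-KO and 14.5 to 21.9 CPM in GSK219 livers. These sums overlapped between WT and TRPV4-KO livers but not between WT and GSK219 livers. Without Plac8 as well, the sums were 6.53 to 12.6 CPM, 7.78 to 11.4 CPM and 7.24 to 9.42 CPM, and overlapped between all groups.

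Genes of bile ducts and of cell contacts were looked up in the same way. Of 16 cholangiocyte genes 13 were tested and none was called, with a summed level of 341 to 449 CPM in WT, 303 to 404 CPM in TRPV4-KO and 314 to 380 CPM in GSK219 livers. The highest of these were the water channel gene Aqp1 with 1791 to 3673 counts, the bicarbonate transporter gene Slc4a2 with 714 to 875 and Spp1 with 364 to 1205. Of 28 genes of epithelial contacts 23 were tested and none was called. The catenin genes Ctnnb1 and Ctnna1, whose proteins belong to the E-cadherin complex, were the highest of them with 3517 to 4055 and 2113 to 2706 counts. Dsg2, a desmosomal cadherin of that list, had 1526 and 1779 counts in WT, 2972, 2611 and 3107 in TRPV4-KO, and 1947, 1829 and 1684 in GSK219 livers. Every TRPV4-KO liver was above every other liver for Dsg2, and the log2 fold change of WT over TRPV4-KO was -0.85 ± 0.13 (SE), with an adjusted p of 0.0412 by edgeR that ranged from 0.0201 to 0.432 when single livers were left out. Of 15 acinar genes, which would mark pancreas tissue, 10 had at most 3 counts in every liver, and Amy2a5 and Ptf1a had 0 counts in all of them. The list summed to 8.72 to 17.8 CPM in WT, 10.4 to 20.7 CPM in TRPV4-KO and 17.5 to 25.8 CPM in GSK219 livers, and none of the 3 tested genes, Cela1, Cela2a and Ctrl, was called. Cela1, an elastase gene with 107 to 387 counts, made up 75.9% to 94.4% of these sums. Of the 12 acinar genes that were not tested, GSK219 replicate 3 had reads of 9, with 27 reads in all and 10 of them from Ctrb1, whereas the other livers had reads of 0 to 3 of these genes and 0 to 5 reads. Of 8 mesothelial genes, which accompany Msln in the liver capsule, 5 were tested and none was called, with sums of 8.16 to 8.66 CPM, 8.88 to 11.8 CPM and 3.95 to 9.24 CPM in the same order.

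Summed levels of markers of other liver cells are given beside Sox9. The summed level of 11 fibroblast and stellate genes was 396 to 597 CPM in WT, 142 to 318 CPM in TRPV4-KO and 188 to 297 CPM in GSK219 livers, and all 11 had positive log2 fold changes of WT over TRPV4-KO, though none was called. The 10 leukocyte genes summed to 608 to 634 CPM in WT, 158 to 343 CPM in TRPV4-KO and 170 to 389 CPM in GSK219 livers, and 1 of the 9 tested, the neutrophil gene S100a8, was called in WT over TRPV4-KO (adjusted p = 0.0275 by edgeR). It was not called in 5 of the 8 fits that left out a liver, with adjusted p-values up to 0.211. The neutrophil marker Ly6g had at most 3 counts in every liver. Hepatocyte genes summed to 66796 to 77653 CPM in WT livers, below the 86902 to 107220 CPM of TRPV4-KO and the 88224 to 95680 CPM of GSK219 livers, and none was called. The gap in the sums was that of the albumin gene Alb, at 31636 to 44375 CPM in WT, 54089 to 74029 CPM in TRPV4-KO and 51442 to 61769 CPM in GSK219 livers. The other 9 genes, summed without Alb after these values had been seen, overlapped between groups, at 33277 to 35160 CPM, 32813 to 35376 CPM and 31726 to 36781 CPM in the same order. In that sum genes of both directions were added up, since of all 10 hepatocyte genes 2, the fibrinogen gene Fgb (0.84) and Apoa1 (0.24), had positive log2 fold changes of WT over TRPV4-KO and the other 8 negative ones, with a median of -0.26 against -0.01 for all tested genes. Endothelial genes summed to 428 to 471 CPM in WT, 271 to 420 CPM in TRPV4-KO and 313 to 435 CPM in GSK219 livers. Proliferation genes summed to 20.7 to 34.1 CPM in WT, 8.42 to 21.2 CPM in TRPV4-KO and 9.12 to 17.5 CPM in GSK219 livers. The part of these cell types in the Sox9 difference was not tested.

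The livers differed in sex-linked reads within each group. Xist had 13681 to 15754 counts in 1 liver of each group, namely WT 1, TRPV4-KO 3 and GSK219 3, which had 0 Y-linked reads and are called livers with Xist reads. The other 5 had 2332 to 2748 Y-linked reads and 0 to 7 Xist counts. Muc1 had 24 to 36 counts in the 3 livers with Xist reads and 3 to 11 in the other 5, without overlap, as for 6.24% of all tested genes. In a comparison added after these values had been seen, with the group kept in the model, its log2 fold change was 1.75 ± 0.36 (SE, adjusted p = 0.0383 by edgeR), where 1.91% of all tested genes were called. With any 1 liver left out the direction held but Muc1 was not called, with adjusted p-values from 0.0540 to 0.173. Epcam had 22 to 26 counts against 8 to 20, also without overlap, with an adjusted p of 0.362. Cdh1 and Sox9 had negative values of -0.63 ± 0.15 and -0.67 ± 0.16, with adjusted p-values of 0.0583 and 0.0575.

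Prom1, a membrane protein of the cholangiocyte list chosen here after its values had been seen, had 158 to 391 counts in the livers with Xist reads and 12 to 19 in the others, a difference of 4.19 ± 0.19 (SE) on the log2 scale (edgeR, adjusted p = 1.08e-05), and it was called with each liver left out. The order of Sox9 was the same within each kind of liver. Among livers with Xist reads it had 197 counts in WT, 111 in GSK219 and 55 in TRPV4-KO, and among livers with Y-linked reads 320 in WT, 130 and 177 in GSK219 and 95 and 95 in TRPV4-KO. For Muc1 the WT liver was highest within each kind, with 36 against 24 and 26, and 11 against 3, 9, 9 and 7.

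**Figure D3:**
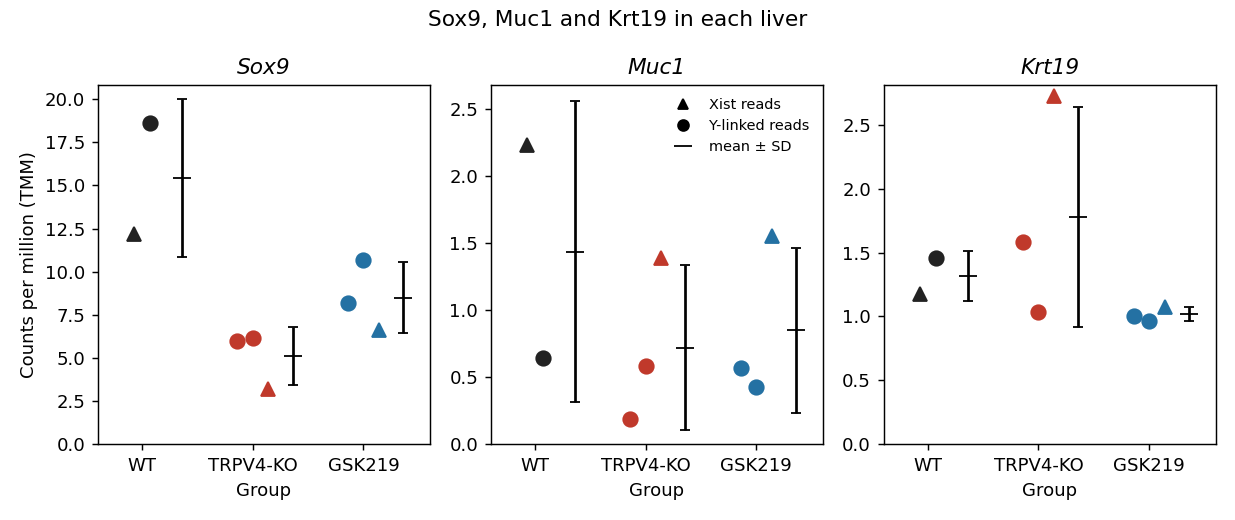
Sox9, Muc1 and Krt19 in CPM in each liver, with triangles for livers with Xist reads, circles for livers with Y-linked reads, and mean ± SD beside each group (n = 2, 3 and 3). Both WT livers are above all others for Sox9, the 3 triangles are above all circles for Muc1, and TRPV4-KO replicate 3 is highest for Krt19.

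Genes whose CPM followed the ductal markers most closely over the 8 livers were sought over all tested genes, and those named here are in none of the lists of ductal or contact genes. Among the closest to Krt19 were Hpf1, Rpa1, Gm13509 and Cyp2a22, with Pearson r from 0.937 to 0.969 on a log2 scale. The 5 closest to Epcam were Gm43672, Sh3bp5, Cyth3, Fam189b and Fry, with r from 0.950 to 0.963. At 8 libraries and 15118 genes such values describe these libraries only. Krt19 and Epcam themselves had r = 0.28, Krt7 and Krt19 had r = 0.41, and Muc1 and Cldn7 had r = 0.75.

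All 10 markers were also listed in the cultured PSCs, at values of 233 or more in every library. The PSC values are gene counts divided by 1 size factor per library. Krt8 had 28135, 28422 and 38264 in the DMSO libraries of preparations 1, 2 and 3, and 22259, 24582 and 47725 in the Yoda1 libraries. Krt18 had 24708, 23715 and 33730 with DMSO and 18986, 21501 and 46230 with Yoda1. Per length they ranked at places 51 and 39 of 16286 genes, where the collagen gene Col1a1 was at place 11 and the smooth muscle actin gene Acta2 at place 12. Preparation 3 was highest for both keratins in both treatments.

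The ductal and contact markers were likewise listed in every PSC library. Krt7 ranged from 5033.5 to 11729, Cdh1 from 5617 to 12261, Krt19 from 2882 to 6221 and Epcam from 2310 to 5137. Sox9 ranged from 1237 to 2211, Cldn7 from 864 to 2073.5 and Muc1 from 233 to 1261. For 9 of the 10 markers, all but Msln, preparation 3 was highest in both treatments, as for 25.4% of all tested genes. The same held for 24 of 28 genes of epithelial contacts and for 12 of 12 listed acinar genes, and for 0 of 7 listed mesothelial genes. Among the acinar genes Ctrb1, a chymotrypsinogen, had 724, 2708 and 4540 with DMSO by preparation. The fibroblast identity was present in all libraries, with Col1a1 at 213910 to 463420. The share of epithelial, acinar or mesothelial cells in these cultures was not tested.

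**Figure D4:**
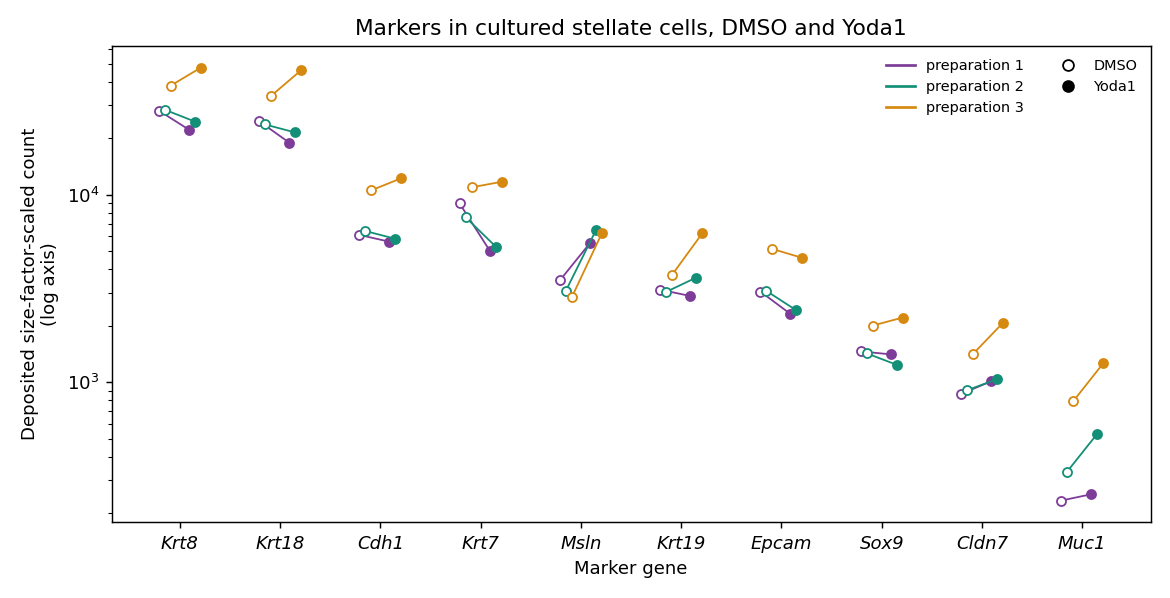
Deposited values of the 10 markers in the PSC libraries on a log axis, with open points for DMSO, filled points for Yoda1 and a line joining the libraries of 1 preparation. Msln is higher with Yoda1 in each preparation, and preparation 3 lies highest for the other 9 markers in both treatments.

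Yoda1 against DMSO, which asks what activation of PIEZO1 changes in PSCs, called none of the 10 markers at both thresholds, where 1.52% of the 15145 tested genes were called. Msln had 3491, 3075 and 2845 with DMSO and 5520, 6472 and 6248 with Yoda1. Every Yoda1 library was above every DMSO library, as for 14.9% of all tested genes, and Msln was the only marker with that order. Its log2 fold change on the log2(value + 1) scale was 0.96 ± 0.10 (SE), or 1.94-fold, with an adjusted p of 0.00999 by limma, just under the fold threshold of 1. At the adjusted p alone, 4.66% of all tested genes passed. The adjusted p of Msln ranged from 0.0102 to 0.0661 with single libraries left out, and it passed both thresholds without DMSO replicate 1 and without Yoda1 replicate 1.

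With the preparation as a replicate block, adjusted p-values under 0.05 were reached by Msln (0.00524), Epcam (0.0227), Cldn7 (0.0442) and Muc1 (0.0494) in limma, as by 18.2% of all tested genes, and no marker passed the fold threshold as well, as did 2.98%. Epcam was lower with Yoda1 in each of the 3 preparations, with a log2 fold change of -0.30 ± 0.06 (SE), from 3044 to 2310, from 3067 to 2414 and from 5137 to 4599. Muc1 was higher in each, with 0.48 ± 0.13, and Cldn7 with 0.33 ± 0.08. Krt8 and Krt18 were lower with Yoda1 in preparations 1 and 2 and were higher in preparation 3, with log2 fold changes of -0.08 ± 0.13 and -0.02 ± 0.16 in the blocked fit.

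Other listed genes passed both thresholds in PSCs. Of the cholangiocyte list, the secreted phosphoprotein gene Spp1 and the keratin gene Krt23 rose, with log2 fold changes of 1.71 and 2.40 and adjusted p-values of 0.0123 and 0.0353 by limma. Of the mesothelial list, the keratin gene Krt14 fell by 2.13 (adjusted p = 0.00951), and of the fibroblast list Col3a1 and Acta2 fell by 1.19 and 1.70 (adjusted p = 0.00369 and 0.0158). Of the endothelial list Kdr fell and Lyve1 rose, and Lyve1 lay between 8.075 and 13.5 with DMSO and between 27.3 and 55.1 with Yoda1. In this fit no gene of the lists of epithelial contacts, PDAC, acinar cells, hepatocytes, leukocytes or proliferation was called. With the preparation as a block all 7 of these genes were called, and others as well. Of the PDAC list Areg and Anxa10 then rose, with log2 fold changes of 1.03 and 2.54 and adjusted p-values of 0.0348 and 0.00756 by limma, and of the acinar list the trypsin gene Try5 rose by 1.05 (adjusted p = 0.0228). Of the mesothelial list Upk3b and Lrrn4 fell by 1.09 and 1.56 (adjusted p = 0.00852 and 0.00739). With single libraries left out of the fit without the block, Col3a1 was called in 6 of 6 fits, Spp1 and Krt14 in 4, Acta2 in 3, Krt23 in 2, and Kdr and Lyve1 in 1.

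Relative to Krt8 in the same library and per length, 7 of the other 9 markers had separate ranges in livers and PSCs, and Cdh1 and Sox9 overlapped. Krt19 was 0.297% to 0.733% of Krt8 in the 8 livers and 10.3% to 15.5% in the 6 PSC libraries. Krt7 was 0.0293% to 0.142% in livers and 5.98% to 8.87% in PSCs, and Epcam 0.174% to 0.482% and 9.25% to 12.9%. Cdh1 was 3.22% to 9.47% in livers and 9.29% to 11.8% in PSCs, and Sox9 0.385% to 2.45% and 2.19% to 2.99%. Krt18 was 71.1% to 103% in livers and 114% to 132% in PSCs. The livers thus held Krt8 and Krt18 with little of the ductal keratins beside them. Both tables were normalized separately, so the values are set side by side without a test.

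**Figure D5:**
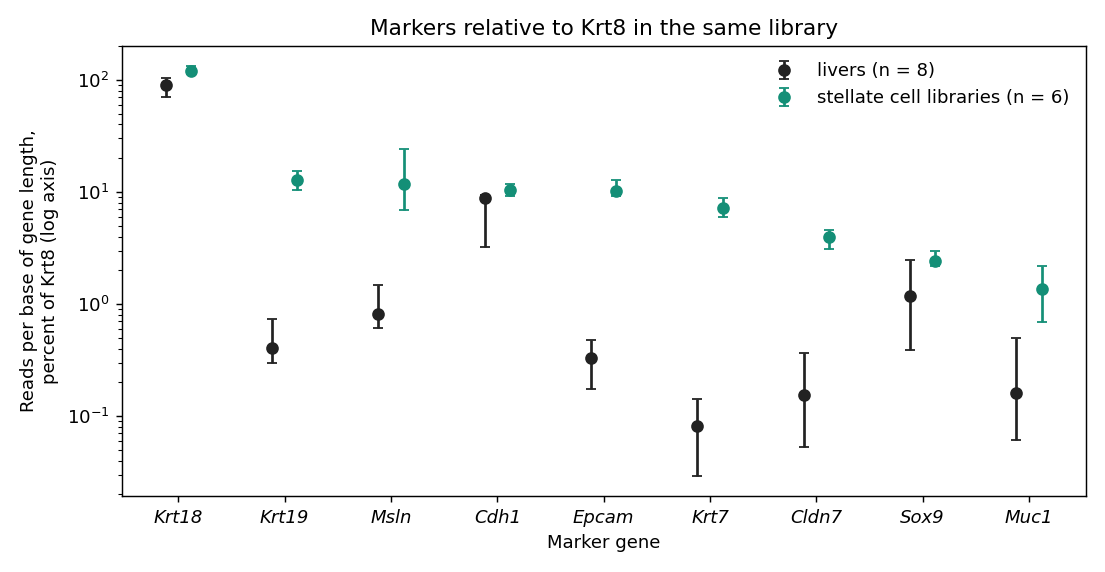
Reads per base of gene length of 9 markers as a percentage of Krt8 in the same library, on a log axis, with the median as a point and the range over 8 livers and 6 PSC libraries as bars. Ranges overlap for Sox9 and Cdh1 and are separate for the other 7 markers.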

How the data were processed

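Liver RNA of 8 mice and RNA of 6 PSC libraries were measured by RNA-Seq. The authors deposited liver counts of reads per gene, without normalization, with gene coordinates that match GRCm38 and a gene length. The table has 7 more liver columns whose names fit none of the labels, and they were left out. The PSC signal deposited by the authors proved to be counts per gene divided by 1 size factor per library, since 100% of 98886 values were whole multiples of 1 step within 0.02 reads. The deposited fold changes, standard errors, test scores and p-values of the authors' own comparison were not used. The submitters' processing notes name HISAT2 2.0.5 and Trim Galore, and the counting tool is not given in the sources used here.

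Liver counts were fitted in R 4.3.3 with edgeR 4.0.16 (TMM, minimum count 10, robust quasi-likelihood fit of all 8 livers). PSC values were analyzed with limma 3.58.1 (trend, robust) on log2(value + 1) where 3 or more libraries reached a value of 10. p-values were adjusted over all genes tested, and genes were called at an adjusted p under 0.05 and an absolute log2 fold change over 1. DESeq2 1.42.0 and other settings were alternatives. PSC libraries of the same replicate number share a sample code, which is read as the same preparation though the labels do not say so. Their deviations correlated at 0.43, 0.26 and 0.53, so the blocked values are given. Correlations between genes used log2(CPM + 0.5). Limits from 3 counts cover counting error only.

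The named genes were all 10 markers, the called genes and those with the highest level of each other list, the 3 highest counts of the PDAC list, the genes most like Krt19 and Epcam, and Trpv4. Ly6g, Ctrb1, Krt6a and other genes named for low counts fall outside it, as does Prom1. The highest genes of the mesothelial, fibroblast, endothelial, leukocyte, proliferation and hepatocyte lists are mostly given through the sum of their list, and some genes that the rule names are not reported here. The members, lists and tests were chosen with earlier results of these data known. On simulated data, edgeR recovered 100% and DESeq2 100% of 8-fold changes in the liver design. Of 2-fold changes they recovered 13% and 18% over 13224 genes, and they made 1 and 12 false calls. In the PSC design limma recovered 100% and 53% over 15255 genes, with 3 false calls. A 2-fold change lies at the fold threshold itself, so these lower rates do not measure power alone. Levels as low as those of Cldn7 and Muc1 in livers were not simulated.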

Additional observations from a re-analysis of the deposited data

How the results depend on the processing

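Depth limits the low markers, since Cldn7, Muc1, Krt7, Epcam and Krt19 rested on 3 to 47 counts per liver, and 2 WT livers limit all comparisons with WT. Small effects can be missed, since a gene is called only above a 2-fold change. The simulated 2-fold changes lie at that threshold and do not measure how often changes of the low markers are missed. Of the members' values, 66 of 70 for WT over TRPV4-KO, 70 of 70 for WT over GSK219, 68 of 68 for TRPV4-KO over GSK219 and 56 of 60 for PSCs kept direction and call in the fits of all libraries. Dropping the fold threshold, counted among these, reuses the main fit and cannot turn a direction. With single libraries left out, 73, 77 and 71 of 80 in the same order of liver comparisons kept both. In PSCs 43 of 60 did, and 15 turned direction. The numbers of genes called differed more, and the cause was not tested.

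WT over TRPV4-KO gave 40 called genes, and 482 with DESeq2, 140 without the filter on low counts, 325 with the term for sex-linked reads and 20 with only the 2 groups compared. Sox9 was the 1 marker called with DESeq2, without the filter and with the sex term, and 0 were called in the other 2 of these fits. WT over GSK219 gave 0 called genes by edgeR, and 74 with DESeq2, 8 without the filter, 4 with the sex term and 2 with only the 2 groups compared. TRPV4-KO over GSK219 gave 15, and 89 with DESeq2, 38 without the filter and 34 with the sex term. In PSCs 230 genes were called, and 705 without the fold-change threshold, where Msln was the 1 marker among them.

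Liver replicate numbers are only numbers, with correlations of deviations from -0.52 to 0.59 between livers of the same number. With them as a replicate block, 429 genes were called in WT over TRPV4-KO, among them 1 marker, Sox9 (adjusted p = 0.0365), and 9 genes in WT over GSK219. In PSCs the replicate block, which is read as the preparation, gave 452 called genes and no called marker.

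With single libraries left out, the number of called genes ran from 3 to 722 in WT over TRPV4-KO (with 0 to 1 marker called), from 0 to 2 in WT over GSK219, from 8 to 79 in TRPV4-KO over GSK219 and from 25 to 280 in PSCs (with 0 to 1 marker called). The highest liver values were without TRPV4-KO replicate 3. Msln was called in PSCs without DMSO replicate 1 and without Yoda1 replicate 1. Directions turned for several genes, Muc1 and Cldn7 with larger values among them. Log2 fold changes of WT over TRPV4-KO ran from -0.12 to 0.79 for Cdh1, from -0.24 to 0.036 for Msln, from -0.71 to 0.011 for Krt19, from -0.38 to 0.20 for Krt7, from -0.083 to 0.70 for Epcam and from -0.16 to 1.87 for Muc1. Those of WT over GSK219 ran from -0.74 to 0.17 for Cdh1, from -0.31 to 0.47 for Epcam and from -0.41 to 1.52 for Muc1. Those of TRPV4-KO over GSK219 ran from -0.21 to 0.11 for Krt8, from -0.46 to 0.019 for Krt18, from -0.48 to 0.10 for Epcam, from -1.13 to 0.55 for Muc1, from -0.027 to 0.79 for Cldn7 and from -0.58 to 0.51 for S100a8. In PSCs they ran from -0.42 to 0.13 for Krt8, from -0.42 to 0.22 for Krt18, from -0.38 to 0.24 for Cdh1, from -0.29 to 0.13 for Sox9, from -0.024 to 0.53 for Krt19, from -0.014 to 0.55 for Cldn7 and from -0.11 to 1.05 for Muc1. With edgeR on the recovered reads, Krt8, Cdh1 and Krt18 had 0.0063, 0.048 and 0.088 in PSCs, where the deposited values gave small negative ones.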
